A study of Gallus gallus with 24 samples.

Results

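The genes described here handle the release of calcium from the sarcoplasmic reticulum and its return. They were chosen by symbol, and 9 of the 10 listed symbols (*RYR2*, *ATP2A2*, *ATP2B1*, *PLN*, *CASQ2*, *TRDN*, *ASPH*, *ITPR1* and *ITPR2*) were found among the 15051 genes of the count table, of which 11779 carry a symbol. The remaining symbol, *JPH2*, matched no row and was not analysed here. RNA-seq libraries were made from heart and liver of female broiler chickens, 24 libraries in all, and each tissue had 6 Sal-exposed and 6 control birds. The exposed groups were given salinomycin (Sal), a polyether ionophore used as a feed additive against coccidia, at 10.5 mg/kg feed up to sampling in week 5, which the labels equate with about 0.9 mg/kg body weight each day. The control groups were sampled in week 5 as well and ate the diet without Sal. All birds were kept without Sal in the first weeks, and the libraries of a group come from separate birds. The methods describe 6 birds per exposure group, from which heart and liver were dissected. The labels do not link the heart and liver libraries of a bird.

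In a beating heart muscle cell, a small entry of calcium through the surface channel opens the ryanodine receptor RYR2 in the membrane of the sarcoplasmic reticulum, and the stored calcium that leaves through it drives contraction. Calsequestrin (CASQ2) holds the calcium inside the store, and triadin (TRDN) and junctin, a product of *ASPH*, tie calsequestrin to the receptor. Relaxation follows when the pump SERCA2 (*ATP2A2*) returns the calcium to the store, at a rate held down by phospholamban (PLN), while plasma membrane pumps such as PMCA1 (*ATP2B1*) move calcium out of the cell. The inositol trisphosphate receptors ITPR1 and ITPR2 are release channels of the endoplasmic reticulum that answer to hormone signals and are used by many cell types, hepatocytes included.

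On the GRCg7b assembly, the genes lie on 5 chromosomes according to the deposited annotation. Chromosome 3 holds *RYR2* (chr3:36847358-37208264), *TRDN* (chr3:60472437-60679684) and *PLN* (chr3:62583567-62593316). Chromosome 1 holds *ATP2B1* (chr1:43444923-43503329), *ITPR2* (chr1:67742505-68004312) and *CASQ2* (chr1:80504381-80536553). *ATP2A2* lies on chromosome 15 (chr15:5319274-5360262), *ASPH* on chromosome 2 (chr2:112988886-113089838) and *ITPR1* on chromosome 12 (chr12:18584357-18735097). Their genomic spans run from 9.75 kb for *PLN* to 361 kb for *RYR2*. Levels are given as TMM-normalized CPM, counts scaled to the effective size of the library, which are not divided by transcript length, so they are compared between libraries for one gene and not between genes.

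The libraries held 31.4 to 44.5 M counts on genes. Mitochondrial genes, 16 in number, took 55.4% ± 16.3 of the counts in Sal-exposed hearts (72% in heart 1 and 79.6% in heart 4) and 41.6% ± 3.51 in control hearts (SD, n = 6 and 6, p = 0.0368 by a two-sided exact permutation test). The remaining counts, which include those of the 9 genes, were 16.3 ± 6.86 M in Sal-exposed hearts (9.28 M in heart 1 and 6.74 M in heart 4). In control hearts they were 21.9 ± 1.93 M (SD, n = 6 and 6). The summed level of 10 cardiomyocyte markers lay between 23596 and 39714 CPM in the 12 hearts and between 28.3 and 286 CPM in the 12 livers, and no library went against its tissue label. Within the livers, 286 CPM was reached in the control group and at most 54.6 CPM in the Sal-exposed group. *TNNC1* made up the largest part of this sum in liver. It stood at 99.8 ± 47.5 CPM in control and 16.8 ± 9.97 CPM in Sal-exposed livers (SD, n = 6 and 6). Control liver 5 also carried transcripts of *RYR2*, *PLN*, *CASQ2* and *TRDN*, as given below. These are bulk samples, so fewer cells of a type and less RNA per cell cannot be told apart.

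To see where these genes were expressed without Sal, control hearts were compared with control livers, with the libraries taken as independent. The release channel, *TRDN*, *CASQ2*, the pump and phospholamban were expressed in heart at many times the level in liver, *ASPH* and *ITPR1* were higher in heart by a smaller factor, and *ITPR2* and *ATP2B1* were higher in liver. All 9 genes passed an adjusted p of at most 0.05 (edgeR quasi-likelihood test with Benjamini-Hochberg adjustment), 7 of them higher and 2 lower in heart. Of all 14121 genes tested, 68.8% passed, 35.9% as higher and 32.9% as lower in heart, and 50.8% with an absolute log2FC of at least 1, as 8 of these 9 genes had. The 6 hearts and 6 livers did not overlap for 8 of the 9 genes, against 53.1% of all genes.

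**Figure D1:**
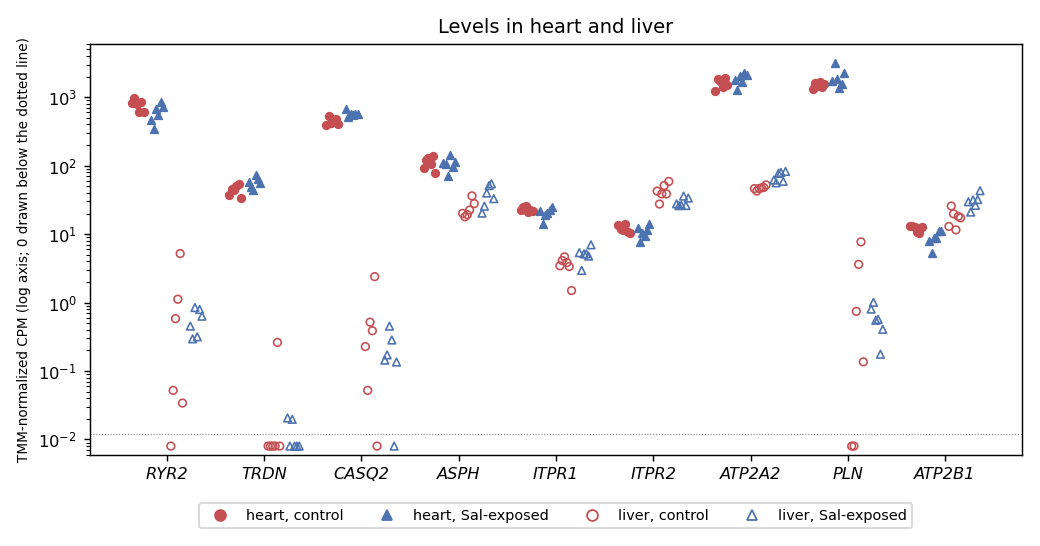
TMM-normalized CPM of the 9 genes (log axis) in each of the 24 libraries, with filled symbols for heart, open symbols for liver, circles for control and triangles for Sal-exposed birds. A level of 0 is drawn below the dotted line. *RYR2*, *TRDN*, *CASQ2* and *PLN* are separated from liver by orders of magnitude, whereas *ITPR2* lies higher in liver than in heart.

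*RYR2* stood at 818, 980, 791, 604, 854 and 602 CPM in control hearts 1 to 6. In control livers 1 to 6 it stood at 0, 0.0521, 0.582, 1.12, 5.20 and 0.0340 CPM. The log2FC of heart over liver was 9.38 (SE 1.15, edgeR p-adj = 5.78e-06), and the liver side of that ratio rested on 186 counts in all, 139 of them in control liver 5. Pooled over the livers, the heart mean was 747-fold the liver level, and it was 2517-fold without control liver 5.

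*TRDN* gave 0 counts in 5 of the 6 control livers and 7 counts in control liver 5, against 37.4, 45.0, 44.1, 50.6, 53.3 and 33.7 CPM in control hearts 1 to 6. Pooled over the 6 livers, the heart mean of *TRDN* was 1128-fold the liver level (log2FC 9.99, SE 0.59, edgeR p-adj = 3.13e-09). Without control liver 5, the liver side held 0 counts, and the heart mean was 2240-fold a floor set at 3 counts over the 5 livers. *CASQ2* ranged from 394 to 537 CPM in control hearts and from 0 to 2.39 CPM in control livers, a log2FC of 9.56 (SE 0.86, edgeR p-adj = 2.37e-07). *PLN* ranged from 1332 to 1663 CPM in control hearts and from 0 to 7.70 CPM in the 6 livers without Sal, with a log2FC of 9.53 (SE 1.30, edgeR p-adj = 1.61e-05). For *CASQ2* and *PLN* the pooled fold went from 819 to 2009 and from 854 to 2076 when control liver 5 was left out. Control liver 5 moved the size of the difference for these 4 genes and not its direction.

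*ATP2A2* differed from this group in that it was clearly present in liver. It stood at 1227, 1853, 1713, 1429, 1890 and 1485 CPM in control hearts 1 to 6 and at 46.3, 42.6, 46.3, 47.4, 48.0 and 52.4 CPM in control livers 1 to 6, a 33.5-fold difference (log2FC 5.06, SE 0.18, edgeR p-adj = 2.91e-11). Its liver values were the most even of any of the 9 genes in that group, with a coefficient of variation of 6.73%. *ASPH*, whose gene count covers a hydroxylase of the endoplasmic reticulum as well as junctin and junctate, was 4.59-fold higher in heart, at 112 ± 24 CPM (SD, n = 6) against 24 ± 6.96 CPM (SD, n = 6).

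The inositol trisphosphate receptors went opposite ways. *ITPR1* was 6.55-fold higher in heart (23.2 ± 1.96 CPM in control hearts and 3.49 ± 1.08 CPM in control livers, SD, n = 6 and 6). *ITPR2* was 3.62-fold lower in heart, with 10.4 to 14 CPM in control hearts and 27.5 to 58.8 CPM in control livers, and its log2FC was -1.86 (SE 0.17, edgeR p-adj = 3.37e-07). *ATP2B1* was lower in heart by a log2FC of -0.56 (SE 0.18, edgeR p-adj = 0.0138), and its groups overlapped, with 10.3 to 12.9 CPM in control hearts and 11.5 to 25.7 CPM in control livers.

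Of 74 other genes of calcium handling that were listed by role, 61 were in the table. In this comparison 60 of them were tested, of which 37 were higher and 9 lower in heart and 14 did not pass. Of all genes tested, 35.9% were higher and 32.9% lower. The lowest p-values belonged to the surface channel subunits *CACNA2D1* (log2FC 5.48), *CACNA1C* (8.84) and *CACNB2* (8.05), the sodium-calcium exchanger *SLC8A1* (6.76), the kinase genes *CAMK2A* (8.60) and *PRKACB* (2.14), the potassium channel of the sarcoplasmic reticulum *TMEM38A* (2.58) and, in the liver direction, the mitochondrial exchanger *SLC8B1* (-4.43).

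The main comparison asked what Sal exposure did to these genes in heart. None of the 9 passed an adjusted p of at most 0.05 (edgeR quasi-likelihood test), where 25 of 13526 genes, 0.185%, passed (19 of the 25 as higher, and 12 of 19 with upper-quartile scaling) and 0.111% also had an absolute log2FC of at least 1. Without adjustment, *CASQ2*, *TRDN* and *PLN* (higher) and *ATP2B1* (lower) had a p below 0.05, 4 of 9 genes, while 17.2% of all genes did, 10.1% as higher and 7.10% as lower. No gene of the 9 had groups that did not overlap, which 2.60% of all genes had. The log2FC values ran from -0.45 for *ATP2B1* to 0.40 for *PLN*, with a median of -0.07 beside a median of -0.02 over all genes tested. Fits with DESeq2 and with surrogate variables from sva, the tools that the methods name, called some of the 9 genes, as given below.

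**Figure D2:**
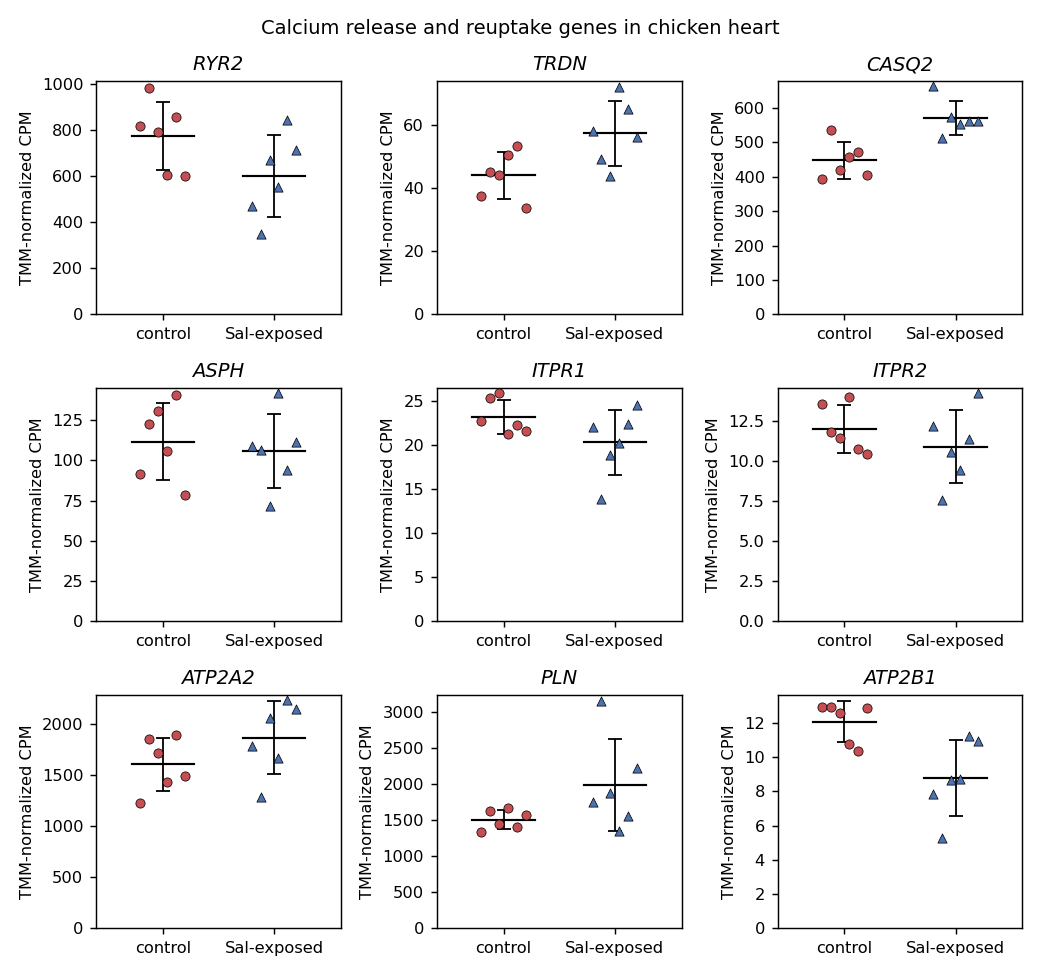
TMM-normalized CPM of each gene in the 12 hearts, control (circles) and Sal-exposed (triangles), with the mean as a bar and the SD as whiskers (n = 6 and 6). In *CASQ2*, 5 of the 6 Sal-exposed hearts lie above all control hearts, and in *ATP2B1* 4 of 6 lie below them.

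On the release side, *RYR2* stood at 469, 349, 671, 553, 843 and 711 CPM in Sal-exposed hearts 1 to 6. Sal-exposed hearts 1, 2 and 4 lay below all control hearts and the other 3 lay within their range. The means were 599 ± 178 CPM in Sal-exposed and 775 ± 148 CPM in control hearts (SD, n = 6 and 6), a log2FC of -0.37 with a 95% interval of -0.80 to 0.07 (SE 0.20, edgeR p-adj = 0.368).

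The store's buffer and the anchors of the channel did not share the sign of *RYR2*. *CASQ2* stood at 665, 512, 573, 553, 562 and 563 CPM in Sal-exposed hearts and at 394, 537, 419, 457, 473 and 404 CPM in control hearts. All Sal-exposed hearts except heart 2 were above control heart 2, the highest control. Its log2FC was 0.36 (95% interval 0.11 to 0.60, SE 0.11, edgeR p-adj = 0.145), a 1.28-fold difference. The call depended on the tool, since DESeq2 gave *CASQ2* an adjusted p of 0.0195 in a fit in which 4.59% of all genes passed, and edgeR with 3 surrogate variables gave 0.0432, with 8.71% of all genes passing. Leaving out any 1 heart kept the adjusted p of *CASQ2* in edgeR between 0.124 and 0.280.

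*TRDN* stood at 58.0, 49.2, 43.8, 72, 64.9 and 56.1 CPM in Sal-exposed hearts, of which hearts 1, 4, 5 and 6 exceeded the highest control. Its means were 57.4 ± 10.2 and 44.0 ± 7.47 CPM (SD, n = 6 and 6), a log2FC of 0.39 (95% interval 0.08 to 0.70, SE 0.14, edgeR p-adj = 0.193). *ASPH* stood at 106 ± 23 and 112 ± 24 CPM (SD, n = 6 and 6), a log2FC of -0.07 with a 95% interval from -0.45 to 0.30 (edgeR p-adj = 0.872).

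The inositol trisphosphate receptors had log2FC values of -0.19 for *ITPR1* (95% interval -0.47 to 0.09) and -0.13 for *ITPR2* (95% interval -0.45 to 0.19). *ITPR1* stood at 20.3 ± 3.72 CPM in Sal-exposed and 23.2 ± 1.96 CPM in control hearts, and *ITPR2* at 10.9 ± 2.29 and 12.0 ± 1.47 CPM (SD, n = 6 and 6). Both were lowest in Sal-exposed heart 2, at 13.8 and 7.57 CPM.

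On the reuptake side, *ATP2A2* stood at 1780, 1277, 2055, 1667, 2232 and 2144 CPM in Sal-exposed hearts 1 to 6, and hearts 3, 5 and 6 lay above all control hearts. Its means were 1859 ± 358 and 1600 ± 262 CPM (SD, n = 6 and 6), a log2FC of 0.22 with a 95% interval of -0.13 to 0.57 (SE 0.16, edgeR p-adj = 0.521). *PLN*, the inhibitor of that pump, stood at 1756, 3156, 1879, 1355, 1561 and 2224 CPM in Sal-exposed hearts and between 1332 and 1663 CPM in control hearts. Sal-exposed hearts 1, 2, 3 and 6 lay above all control hearts. Its log2FC was 0.40 (95% interval 0.00 to 0.80, SE 0.19, edgeR p-adj = 0.289) and was 0.22 without Sal-exposed heart 2, the highest of the 12 hearts.

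*ATP2B1*, which exports calcium across the cell surface, stood at 7.83, 5.25, 8.69, 8.75, 11.2 and 11.0 CPM in Sal-exposed hearts and at 12.9, 12.9, 12.6, 10.8, 10.3 and 12.9 CPM in control hearts. Sal-exposed hearts 1 to 4 lay below all control hearts, and hearts 5 and 6 fell within their range. The log2FC was -0.45 (95% interval -0.81 to -0.10, SE 0.17, edgeR p-adj = 0.188), a 1.37-fold difference. DESeq2 with 3 surrogate variables called *ATP2A2*, *PLN*, *CASQ2* and *TRDN* as higher in Sal-exposed hearts, with adjusted p-values from 0.00396 to 0.0280, in a fit in which 14.7% of all genes passed. *ATP2B1* passed in no alternative.

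Some marker lists moved beside these values. No tested marker of atrium, smooth muscle, endothelium, leukocytes or erythrocytes had an unadjusted edgeR p below 0.05 in heart. Such a p was found for 1 of 2 ventricle markers, as higher, and 1 of 3 skeletal muscle markers, as lower. It was also found for 3 of 4 adipocyte markers, 1 as higher and 2 as lower, beside 17.2% of all genes. No marker of these 3 lists was called. The summed level of the 10 cardiomyocyte markers was 30719 to 39714 CPM in Sal-exposed and 23596 to 31208 CPM in control hearts. Of these 10 genes, 9 had a positive log2FC, none passed after adjustment, and their median log2FC was 0.40. An unadjusted edgeR p below 0.05 was found for 5, all as higher, beside 17.2% of all genes (10.1% as higher). The 6 fibroblast markers summed to 1644 to 2505 CPM in Sal-exposed and 2245 to 3575 CPM in control hearts. Of the 6, 4 had a negative and 2 a positive log2FC, and none was called. An unadjusted edgeR p below 0.05 was found for 3, all as lower. Mean levels of *DCN* (459 and 446 CPM) and *LUM* (111 and 109 CPM) were not lower in the Sal-exposed hearts. The 8 hepatocyte markers summed to 25.2 to 101 CPM and 7.72 to 13.1 CPM, where *TTR* has 2 rows, 1 of them at 0 in all Sal-exposed hearts. Of the 8 rows tested, 8 were higher with an unadjusted edgeR p below 0.05 and 3 were called, beside 0.185% of all genes. Their median log2FC was 1.96, and 6 had groups that did not overlap, beside 2.60% of all genes. The part of cell composition in the values of *CASQ2*, *TRDN*, *PLN* and *ATP2B1* was not tested. Without Sal-exposed hearts 1 and 4, which had the highest mitochondrial shares, none of the 9 genes was called, and their log2FC values kept their signs, at -0.26 for *RYR2*, 0.31 for *CASQ2*, 0.55 for *PLN* and -0.41 for *ATP2B1*.

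Ratios of counts within a library do not depend on the scaling between libraries, and 3 ratios to the pump gene *ATP2A2* were compared. The ratio of *RYR2* to *ATP2A2* was 0.264, 0.273, 0.326, 0.332, 0.377 and 0.332 in Sal-exposed hearts 1 to 6 and 0.666, 0.529, 0.462, 0.422, 0.452 and 0.405 in control hearts 1 to 6. Every Sal-exposed heart lay below every control heart. The means were 0.317 ± 0.0423 and 0.489 ± 0.0965 (SD, n = 6 and 6), a 1.53-fold lower ratio with Sal (log2 difference -0.61, two-sided exact permutation test over all splits of 6 and 6, p = 0.00216, adjusted over the 3 ratios p = 0.00325). That p is the smallest the design can give. The 3 pairs were chosen with earlier results of these data known, and the adjustment over 3 ratios does not cover that choice.

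The ratio of *ATP2B1* to *ATP2A2* was 0.00440, 0.00411, 0.00423, 0.00525, 0.00504 and 0.00512 in Sal-exposed hearts and 0.0105, 0.00699, 0.00737, 0.00752, 0.00547 and 0.00867 in control hearts. The groups were again apart, by a narrow gap between 0.00525 and 0.00547, and the ratio was 1.63-fold lower with Sal (log2 difference -0.70, two-sided exact permutation test, p = 0.00216, adjusted p = 0.00325). The ratio of *PLN* to *ATP2A2* was 1.15 ± 0.657 in Sal-exposed and 0.963 ± 0.164 in control hearts (SD, n = 6 and 6), and no difference was found (log2 difference 0.14, two-sided exact permutation test, p = 0.775). Sal-exposed heart 2, at 2.47, stood far above the other 5 Sal-exposed hearts, which ranged from 0.699 to 1.04.

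**Figure D3:**
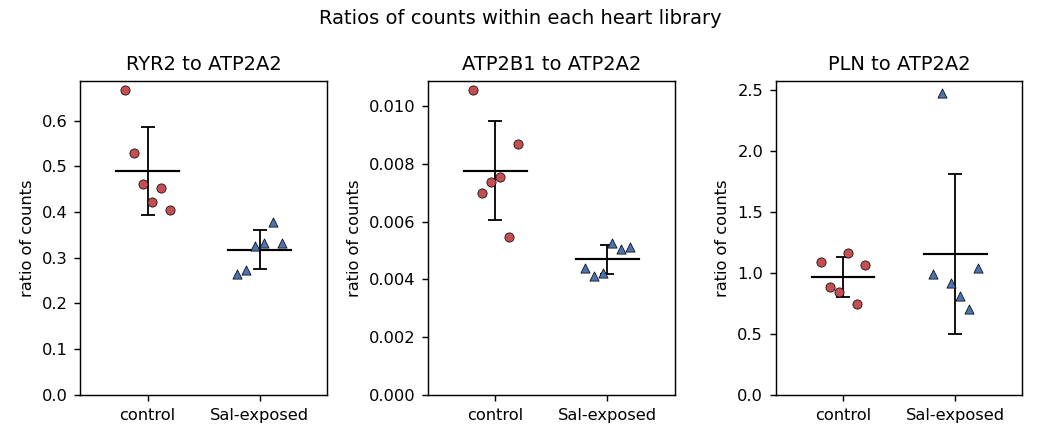
Ratio of counts of *RYR2*, *ATP2B1* and *PLN* to counts of *ATP2A2* within each of the 12 hearts, control (circles) and Sal-exposed (triangles), with the mean as a bar and the SD as whiskers. The first 2 ratios do not overlap between the groups, and in the third only Sal-exposed heart 2 stands apart, at 2.47.

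The 3 ratios share *ATP2A2* and are not independent of each other. How many of all genes have a ratio to *ATP2A2* that separates the groups was not computed. The separation is therefore not shown to be particular to *RYR2* and *ATP2B1*. With any single heart left out, the log2 differences of the first 2 ran from -0.67 to -0.52 and from -0.80 to -0.61 (exact permutation p between 0.00216 and 0.00433). Without both Sal-exposed hearts 1 and 4 they were -0.57 (exact p = 0.00476) and -0.73 (exact p = 0.00952). Groups that do not overlap stay apart when hearts are removed, so these p-values were fixed by the separation and add no support. *RYR2* spans 361 kb and *ATP2A2* 41.0 kb, so counts were also divided by each library's trend of count on genomic span. The log2 differences were then -0.56 and -0.69 (exact p = 0.00216 for both). A difference in a ratio shows unequal change in the bulk counts of its 2 genes. The part of cell composition in the ratios was not tested. Neither *RYR2*, *ATP2B1* nor *ATP2A2* passed on its own in edgeR.

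The deviations of each heart from the mean of each gene show how the libraries differed within a group. Sal-exposed heart 2 was the lowest of the 12 hearts for *RYR2*, *ATP2B1*, *ITPR1* and *ITPR2* and the highest for *PLN*. Sal-exposed heart 6 was among the 3 highest hearts for 5 of the 9 genes and among the 3 lowest for none. Control heart 1 was the lowest of the 12 for *ATP2A2*, *PLN* and *CASQ2* and was among the 3 lowest for 5 genes.

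**Figure D4:**
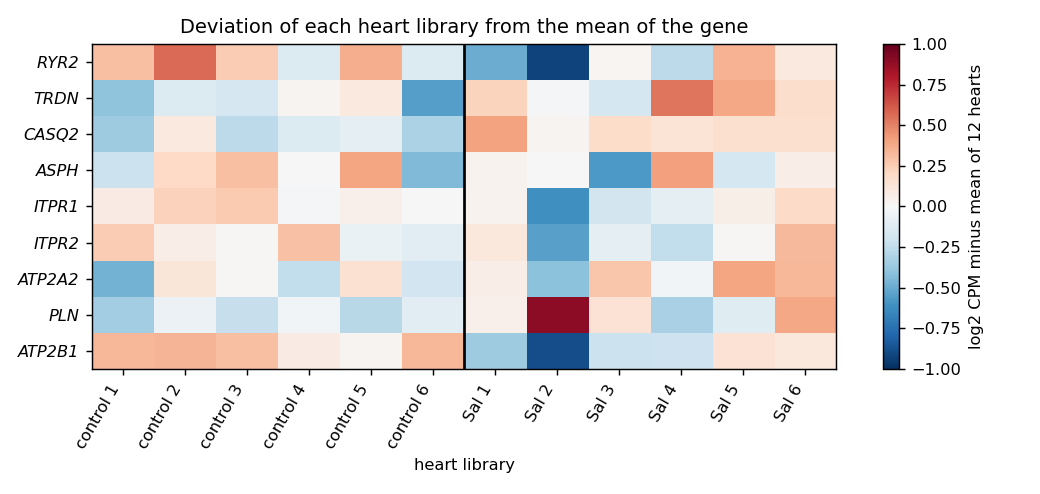
Deviation of log2 CPM of each gene (rows) in each heart (columns, control left and Sal-exposed right of the line) from its mean over the 12 hearts, red above and blue below. The row of *CASQ2* turns from mostly blue to mostly red at the line, the row of *ATP2B1* goes the other way, and Sal-exposed heart 2 is the bluest column for *RYR2* and *ATP2B1*.

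As a description of which other genes varied alike, the 13526 genes tested in heart were ranked by the root mean square difference of their mean-centred log2 CPM from that of *RYR2*, *ATP2A2* and *PLN* over the 12 hearts. For *RYR2* the nearest were *ARFGEF1* (0.145), *NBAS* (0.148) and *RAB3GAP2* (0.151), where the median over all genes was 0.503. For *ATP2A2* they were an unnamed gene (ENSGALG00010005026, 0.134), *ECPAS* (0.145) and *TEAD3* (0.150), with a median of 0.415. For *PLN* they were *GLRX5* (0.0897), an unnamed gene (ENSGALG00010001868, 0.0964) and *NDUFV2* (0.102), with a median of 0.474. None of the other 8 genes of calcium release and reuptake was among the 3 nearest to any of these.

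Among the other calcium genes, 60 were tested in heart and none was called by edgeR, beside 0.185% of all genes. There were 30 positive and 30 negative log2FC values, with a median of 0.00. An unadjusted edgeR p below 0.05 was found for 7 of the 60, beside 17.2% of all genes (10.1% as higher, 7.10% as lower). The 7, named here after their values were seen, were *ATP2A3*, *AKAP6*, *CANX* and *SLC8B1* as lower and *LETM1*, *TMEM38A* and *PPP1CB* as higher. DESeq2 called *ATP2A3* alone, in a fit in which 4.59% of all genes passed. By role, the 8 tested genes of reuptake and extrusion had the lowest median log2FC, -0.34, and the 10 kinases and phosphatases the highest, 0.07. These extremes were picked after the values were seen. The first list held 3 positive and 5 negative values and the second 7 and 3, each with 1 unadjusted edgeR p below 0.05.

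In liver, the question was what the same genes did outside heart muscle. *ATP2A2* and *ATP2B1* were higher and *ITPR2* was lower in the Sal-exposed livers, and these 3 of the 7 genes tested passed an adjusted p of at most 0.05, where 15.4% of 13587 genes passed (7.57% as higher, 7.84% as lower). None of them had an absolute log2FC of 1, which 7.01% of all genes had beside the adjusted p. *CASQ2* and *TRDN* had too few counts in liver to be tested.

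*ATP2A2* stood at 61.6, 56.2, 77.3, 79.8, 59.1 and 82.4 CPM in Sal-exposed livers 1 to 6, each above the highest control liver at 52.4 CPM. Its log2FC was 0.49 (95% interval 0.18 to 0.81, SE 0.15, edgeR p-adj = 0.0351), a 1.41-fold difference, and 5.73% of all genes tested had groups that did not overlap. *ATP2B1* stood at 29.7, 21, 31.6, 26.3, 32 and 43.2 CPM in Sal-exposed and 13, 25.7, 19.8, 11.5, 18.2 and 17.3 CPM in control livers. All Sal-exposed livers except liver 2 lay above control liver 2, the highest control, and the log2FC was 0.75 (95% interval 0.31 to 1.19, SE 0.21, edgeR p-adj = 0.0273), a 1.68-fold difference.

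*ITPR2* stood at 27.7, 26.1, 26.4, 35.9, 26.2 and 33.7 CPM in Sal-exposed and 42.5, 27.5, 38.7, 51.3, 38.7 and 58.8 CPM in control livers. The groups overlapped through control liver 2 alone, the lowest control, and the log2FC was -0.62 (95% interval -1.03 to -0.21, SE 0.19, edgeR p-adj = 0.0426), a 1.54-fold lower level. *ASPH* (log2FC 0.58, edgeR p-adj = 0.138) and *ITPR1* (log2FC 0.49, edgeR p-adj = 0.253) did not pass. *RYR2* and *PLN* were near 0 in all Sal-exposed livers, at 0.295 to 0.846 and 0.176 to 1.01 CPM, and their log2FC values of -1.08 and -1.82 rested on control livers 4 and 5. These held the most of both genes, with 1.12 and 5.20 CPM of *RYR2* and 3.62 and 7.70 CPM of *PLN*, and without them the log2FC values were 1.69 and 1.37 with adjusted p-values of 0.319 and 0.474 (edgeR).

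Marker lists were also compared in liver, where edgeR called 15.4% of all genes tested, 7.57% as higher and 7.84% as lower. The hepatocyte markers summed to 86993 to 183543 CPM in Sal-exposed and 100886 to 261307 CPM in control livers, and all 9 of their rows had a negative log2FC, with a median of -0.86 and 2 called as lower (*APOH* and *PLG*). The 3 erythrocyte markers summed to 63.0 to 230 and 172 to 655 CPM, with 2 called as lower, and of the 6 fibroblast markers, at 188 to 595 and 419 to 826 CPM, 2 were called as lower. The 4 leukocyte markers summed to 448 to 955 and 361 to 840 CPM, with 1 called as higher, *PTPRC*. Of 7 cardiomyocyte and 4 smooth muscle markers tested, 1 each was called as lower, and no endothelial marker of 5 was called. The part of cell composition in the values of *ATP2A2*, *ATP2B1* and *ITPR2* was not tested.

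The liver calls were close to the threshold. With each liver left out in turn, *ATP2A2* passed in 4 of 12 fits, *ATP2B1* in 6 and *ITPR2* in 2, with adjusted p-values of at most 0.108 for these 3 genes, and their log2FC values ran from 0.45 to 0.57, 0.64 to 0.87 and -0.73 to -0.48. Without control livers 4 and 5, none of the 3 passed, with adjusted p-values between 0.116 and 0.129, and 446 of all genes did. The median log2FC in liver went from -0.23 for genes spanning up to 10 kb to 0.28 for those above 100 kb. With the trend on genomic span taken out, *ITPR2* passed (log2FC -1.05, edgeR p-adj = 0.0119), while *ATP2A2* (0.29, p-adj = 0.133) and *ATP2B1* (0.47, p-adj = 0.116) did not. With upper-quartile scaling, *ITPR2* did not pass (log2FC -0.55, p-adj = 0.0663).

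Of the other calcium genes, 54 were tested in liver, with 5 called as higher and 4 as lower. The list was called about as often as all genes, of which 15.4% passed (7.57% as higher and 7.84% as lower). The higher genes were the Golgi calcium pump *ATP2C1* (log2FC 0.80), the kinase genes *CAMK2D* (1.02) and *PRKACB* (0.63), the mitochondrial inner membrane protein *LETM1* (0.58) and the junctophilin *JPH1* (0.73). The lower genes were *CAMK2B* (-1.29), *SLC8B1* (-0.70), *CALR* (-1.05), which encodes the calcium buffer calreticulin of the endoplasmic reticulum, and 1 further gene. Without control livers 4 and 5, edgeR called none of the 54.

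**Figure D5:**
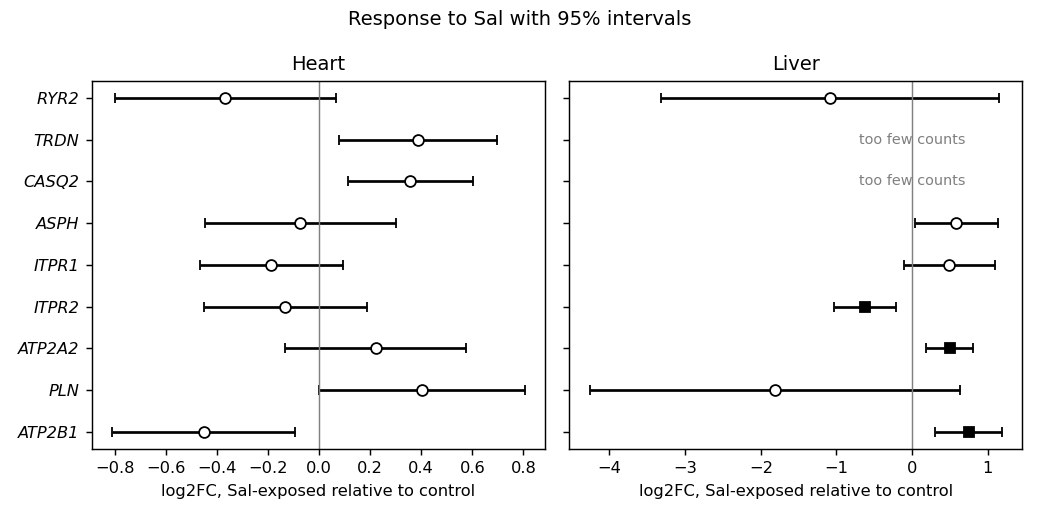
log2FC of Sal-exposed over control libraries in heart (left) and liver (right) with 95% intervals from the edgeR fit, filled where the adjusted p is at most 0.05. The horizontal scales differ between the panels. No gene passes in heart, and *ITPR2*, *ATP2A2* and *ATP2B1* pass in liver.

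The interaction of tissue and Sal exposure over the 24 libraries tested whether heart and liver responded differently. With the libraries taken as independent, *ATP2B1* was the only one of the 9 genes to pass, where 16.2% of 14632 genes passed (7.21% with a more positive and 9.01% with a more negative response in heart, and 10.6% with an absolute difference of at least 1). Its level was 8.79 ± 2.20 against 12.1 ± 1.2 CPM in heart and 30.6 ± 7.38 against 17.6 ± 5.09 CPM in liver (Sal-exposed against control, SD, n = 6 each). The response in heart minus that in liver was -1.26 on the log2 scale (95% interval -1.83 to -0.68, SE 0.28, edgeR p-adj = 0.00401). It passed with each of the 24 libraries left out, with adjusted p-values from 0.00104 to 0.00951.

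*ATP2A2*, called in liver and not in heart, was not shown to differ between the tissues (interaction -0.34, 95% interval -0.83 to 0.15, edgeR p-adj = 0.344), nor was *ITPR2* (0.41, 95% interval -0.07 to 0.89, edgeR p-adj = 0.236). *ITPR1* (-0.73, edgeR p-adj = 0.0899) and *ASPH* (-0.72, edgeR p-adj = 0.126) did not pass. With the replicate number as a block, *ITPR1* passed (-0.77, edgeR p-adj = 0.0370) beside *ATP2B1* (-1.31, edgeR p-adj = 0.00125), but the labels do not say whether a number marks 1 bird in both tissues. The share of all genes that passed in the blocked fit is not given here, so no excess among the 9 genes is read from it. The interaction values of *RYR2*, *PLN*, *CASQ2* and *TRDN* (0.64, 2.17, 1.89 and 2.35, edgeR p-adj from 0.124 to 0.692) set hearts against livers near 0 and moved to -1.13, 0.94, 0.56 and -1.34 without control liver 5. DESeq2, in which 21.4% of all genes passed, called *TRDN* in addition to *ATP2B1*. Of the 61 other calcium genes tested, 2 had a more positive response in heart than in liver (*TMCO1* and *CAMK2B*). A more negative one was found for 7, among them *CANX*, *ATP2A3*, *CAMK2D*, *ATP2C1*, *CACNA1C* and *PRKACB*. Of all genes tested, 7.21% passed with a more positive and 9.01% with a more negative response in heart.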

How the data were processed

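RNA-seq of chicken heart and liver (24 libraries) was analysed from the deposited count table. According to the methods and processing notes, the authors used fastp for trimming, STAR for mapping to GRCg7b and RSEM for quantification, and the deposited values are raw counts of each Ensembl gene, all whole numbers. For differential expression the methods name DESeq2, with the sva package used against batch effects. The main test here was edgeR without surrogate variables, and DESeq2 and surrogate variables were among the alternatives. Versions of the authors' tools are not given in the sources used here. Libraries were assigned by title and library name, and 12 of the 36 columns match no sample and were not used. The deposited table of each tissue also holds the authors' DESeq2 log2 fold changes and p-values, which were not used. Only its gene symbols and positions were taken. The authors' counts do not separate the products of a gene or the strand.

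The analysis used edgeR 4.0.16 and limma 3.58.1 in R 4.3.3. Libraries were scaled by TMM, genes were kept by filterByExpr (minimum count 10, minimum total count 15), and groups were compared by quasi-likelihood tests with Benjamini-Hochberg adjustment over all genes tested, with calls at adjusted p-values up to 0.05. SE is the log2FC divided by the root of F, and intervals are 95%. Two-sided exact permutation tests were used for ratios and the mitochondrial share. The pseudocount for likeness was 0.5 CPM. Total counts were 31.4 to 44.5 M per library, or 6.74 to 35.4 M without mitochondrial genes, and precision rests on the spread between birds. No library copied another of its group (lowest chi-square per degree of freedom 12.9). The scripts were tested on simulated data. Alternatives were DESeq2 1.42.0, upper-quartile scaling, no filter, mitochondrial genes left out, a replicate block, surrogate variables (sva 3.50.0), all 24 libraries in one fit, an offset on genomic span and each library left out. Leaving out Sal-exposed hearts 1 and 4 or control livers 4 and 5, the mitochondrial share as a covariate and the span offset on ratios were chosen after the data were seen. The genes, lists, tests and naming rule were chosen with earlier results of these data known. All listed genes are named, with at most 8 called genes of the other calcium list per comparison and the 3 genes nearest to *RYR2*, *ATP2A2* and *PLN*.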

Additional observations from a re-analysis of the deposited data

Results flagged for a closer look

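Among 42 groups of 6 libraries examined for a single library far from the other 5, 4 had one. The cut-off flags about 1 in 20 groups of independent, normally distributed values. These groups share libraries and some hold values near 0, so no excess is read from the count. In control liver 5, *RYR2* stood at 5.20 CPM, *CASQ2* at 2.39 CPM and *TRDN* at 0.262 CPM, while the other control livers reached at most 1.12, 0.518 and 0 CPM. *PLN*, at 7.70 CPM, was also highest in that library. In Sal-exposed heart 2, the ratio of *PLN* to *ATP2A2* was 2.47, with the other 5 Sal-exposed hearts at 0.699 to 1.04. The response of *ATP2B1* to Sal differed between the tissues, by -1.26 on the log2 scale (heart minus liver, edgeR p-adj = 0.00401). It was lower with Sal in heart, where it did not pass, and higher in liver, where it did, though not with the span offset. That offset was not run on the interaction.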

How the results depend on the processing

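In heart, the 25 genes called became 673 with DESeq2, 1227 and 2120 with surrogate variables in edgeR and DESeq2, 41 with all 24 libraries in one fit, 2 with the mitochondrial share as a covariate and 0 with the replicate block, where 1943 had an unadjusted p below 0.05. They ranged from 0 to 270 with 1 heart left out. Of the 9 genes, 1 was called with DESeq2, 1 and 4 with surrogate variables, and 0 with any heart left out. In liver, the 2093 genes called became 961 with the block, 3824 and 4699 with surrogate variables, 3654 with all libraries and 446 without control livers 4 and 5, and ranged from 896 to 2833 with 1 liver left out. The 3 genes called became 2 with upper-quartile scaling, which lost *ITPR2* (15.8% of all genes passed), and 1 with the span offset (13.6%). With surrogate variables in edgeR they became 5, *RYR2* among them with its sign turned. With surrogate variables in DESeq2 and with all libraries in one fit they became 4. *ASPH* was among the genes called in the fits with 5 and with 4. The 3 became 0 with the block or without control livers 4 and 5, and 0 to 2 with 1 liver left out. Of the other calcium genes, the 9 called in liver became 2 with the block, 16 and 19 with surrogate variables and 18 with all libraries. They became 0 without both livers and 2 to 13 with 1 left out. The 0 called in heart became 8 and 14 with surrogate variables. Calls among all genes also rose with surrogate variables, to 26.8% and 31.4% in liver and 8.71% and 14.7% in heart (edgeR and DESeq2). With all libraries they rose to 3654 of 14632 genes in liver. Whether the calcium list was called more often than all genes in these fits was not tested. In the interaction, 2 genes were called with DESeq2 (*ATP2B1* and *TRDN*) and with the block (*ATP2B1* and *ITPR1*) and 1 to 2 with 1 library left out. No excess over all genes is read from these counts.

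Signs turned for genes with few counts in liver and for small log2 differences between hearts. In liver, *RYR2* was 0.94 with the block, 1.78 and 0.69 with surrogate variables and 1.69 without control livers 4 and 5, and *PLN* was 0.39, 1.03 (edgeR) and 1.37. *RYR2* was -0.60 in the blocked interaction. With 1 library left out, ranges were -1.35 to 0.63 for *RYR2* in liver, -1.13 to 0.91 for *RYR2* and -1.34 to 2.79 for *TRDN* in the interaction, -0.17 to 0.025 for *ASPH* in heart and -0.11 to 0.25 for the ratio of *PLN* to *ATP2A2*. The causes were not tested. The labels do not say that a replicate number is shared, and deviations of same-numbered libraries correlated at -0.21 to 0.07 in heart and -0.07 to 0.17 in liver between treatments. Between heart and liver they correlated at -0.11 to 0.45 with Sal, where 5 of 6 pairs were over 0.1 and 5 matched best with their own number, and at -0.04 to 0.23 in controls, where 2 were over 0.1 and 3 matched best. The methods describe heart and liver dissected from 6 birds of each group, without giving the numbering. These correlations are a hint from the data that a number may be shared by both tissues. Counts of at most 7 for *TRDN* and 98 for *CASQ2* over a liver group limit any statement on them in liver.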

Other observations

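An unnamed gene, ENSGALG00010000093 (GRCg7b, chr37:60399-81688), overlaps the span that RefSeq gives for *JPH2*, the junctophilin that holds the surface membrane and the sarcoplasmic reticulum together. RefSeq places *JPH2* at chr37:54081-76594, and the strand of the unnamed gene is not given in the sources used here, so it was not counted among the genes above. Its level was 19.2 ± 8.47 CPM in Sal-exposed hearts and 19.7 ± 4.78 CPM in control hearts (SD, n = 6 and 6). In liver it was 0.986 ± 0.723 CPM in the Sal-exposed group and 2.31 ± 2.37 CPM in the control group (SD, n = 6 and 6), with 6.60 CPM in control liver 1 and 0.598 to 3.62 CPM in the other 5.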
